A study of Mus musculus with 9 samples.

Results

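Sodium chloride is reabsorbed from the urine by the thick ascending limb of the loop of Henle and by the distal convoluted tubule that follows it. The 9 genes described here encode parts of that machinery: the secreted protein uromodulin (Umod), the cotransporters NKCC2 (Slc12a1) and NCC (Slc12a3), the potassium channels ROMK (Kcnj1) and Kir4.1 (Kcnj10), the chloride channel subunit barttin (Bsnd), and the kinases Wnk1, Wnk4 and SPAK (Stk39). They were chosen by symbol, for what they are known to do, with earlier results of these data known. All 9 were matched on the array, by 11 probes, and all 9 were among the 17741 genes tested. The brightest probe stood for each gene, and every member probe was well above background on all 9 arrays.

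RNA from 9 whole left kidneys was hybridised to 9 arrays, each kidney from 1 male mouse aged 10 weeks on a mixed strain background. All mice, controls included, carried the ISAM genotype, labelled Epo-/-::3.3K-Epo3'-Tg458, in which both copies of the erythropoietin gene are disrupted and an Epo transgene is present. The line models erythropoietin-deficiency anaemia, and the labels do not say which cells express the transgene. A vascular clip closed the left ureter for 2 days in the clip arm (3 mice), and in the release arm (3 mice, labelled ClipR-14) the clip was then taken off for 12 days. The control arm of 3 joined 2 sham-treated mice and 1 untreated mouse, as the study's design does. When the control kidneys were collected is not given in the labels, and kidneys of mice that make erythropoietin normally were not analysed here, so nothing below separates obstruction from obstruction in an anaemic animal. The arrays had 1 colour and were spread over 3 slides, each with 1 array of each arm. The signal at the 75th percentile ran from 320.4 to 439.2, between 52% and 57.5% of probes were well above background, and array correlations across genes were 0.979 to 0.99 within arms and 0.923 to 0.938 between clip and control. Genes are not independent replicates in those correlations. Slide 3 held the untreated array and was scanned on another date than slides 1 and 2.

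In the thick limb, NKCC2 takes sodium, potassium and chloride up from the tubule fluid. ROMK returns the potassium to the fluid, and chloride leaves the cell on the blood side through channels that need barttin. In the distal convoluted tubule NCC takes up sodium and chloride, and Kir4.1 in the basolateral membrane sets the membrane voltage that drives chloride exit. The WNK kinases switch on SPAK, which phosphorylates NKCC2 and NCC. Uromodulin is made almost only in the thick limb and is the most abundant protein of normal urine.

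The sequences just before the starts of the genes for uromodulin, both cotransporters and ROMK are shown because these transcripts carry the main contrasts below. They come from the RefSeq promoter table (build GRCm38.p6) and hold the 250 bases before each gene's annotated start, 5′ to 3′ on the gene's own strand. Umod lies on the minus strand at chr7:119479263-119479512, Slc12a1 on the plus strand at chr2:125152350-125152599, Slc12a3 on the plus strand at chr8:94328958-94329207 and Kcnj1 on the plus strand at chr9:32393735-32393984. Capitals mark a match, on either strand, to AAGGTCA (the core of the estrogen-related receptor motif) or TATAAA (the TATA box).
Umod: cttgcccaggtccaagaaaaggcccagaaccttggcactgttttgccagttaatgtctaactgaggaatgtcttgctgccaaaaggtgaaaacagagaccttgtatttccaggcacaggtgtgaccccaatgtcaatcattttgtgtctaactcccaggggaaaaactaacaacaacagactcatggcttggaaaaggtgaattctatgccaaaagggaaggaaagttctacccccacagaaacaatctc
Slc12a1: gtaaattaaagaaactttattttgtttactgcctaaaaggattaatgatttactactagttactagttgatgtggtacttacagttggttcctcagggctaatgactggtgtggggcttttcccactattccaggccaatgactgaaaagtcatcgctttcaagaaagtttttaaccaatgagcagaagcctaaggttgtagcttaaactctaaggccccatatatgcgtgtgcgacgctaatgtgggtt
Slc12a3: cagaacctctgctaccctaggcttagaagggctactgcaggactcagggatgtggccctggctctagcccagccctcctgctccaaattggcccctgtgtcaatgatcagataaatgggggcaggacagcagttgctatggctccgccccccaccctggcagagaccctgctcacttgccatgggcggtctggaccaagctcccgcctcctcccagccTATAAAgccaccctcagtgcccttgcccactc
Kcnj1: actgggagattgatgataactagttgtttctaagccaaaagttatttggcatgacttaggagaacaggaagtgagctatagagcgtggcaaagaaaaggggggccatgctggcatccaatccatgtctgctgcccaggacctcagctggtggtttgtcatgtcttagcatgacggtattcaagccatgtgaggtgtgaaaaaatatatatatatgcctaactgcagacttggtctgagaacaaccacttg
TATAAA was present in 12.4% of the 32851 windows of the table, and of the 8 members with a window only that of Slc12a3 held it, at 32 to 27 bases before the start. AAGGTCA was present in 4.08% of windows and in 0 of the 8 members' windows. The windows of Umod, Slc12a1 and Kcnj1 had G plus C contents of 45.2%, 39.6% and 44.8%, below the table's median of 52.4%, and that of Slc12a3 had 61.2%. The windows of Kcnj10, Wnk1, Wnk4 and Stk39 had 62%, 64%, 70% and 82.4%. A letter match is a description of the window only, and the table has no entry for Bsnd.

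After 2 days of obstruction, 8 of the 9 genes were lower than in control kidneys (limma, Benjamini-Hochberg adjusted p at or under 0.00296), and Stk39 did not pass the test. In those 8 every clip kidney lay below every control kidney, as in 33.2% of all genes tested. Of all genes tested, 27.5% were called lower and 48.9% were called in either direction. The median change of the 9 genes was -1.67 on the log2 scale, beside -0.09 for all genes tested. The size of the change was far from equal. Slc12a1 fell 11.4-fold and Slc12a3 4.74-fold, whereas Umod, the other gene most closely tied to the thick limb, fell 1.72-fold. After 12 days without the clip none of the 9 was called against control (1.83% of all genes were), and all 9 were higher than in the clip arm (23.5% of all genes were). In bulk RNA, fewer cells of a type and less RNA per cell cannot be told apart. The labels do not say whether the mice of an arm came from separate experiments, so p-values measure only the spread between these samples.

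**Figure D1:**
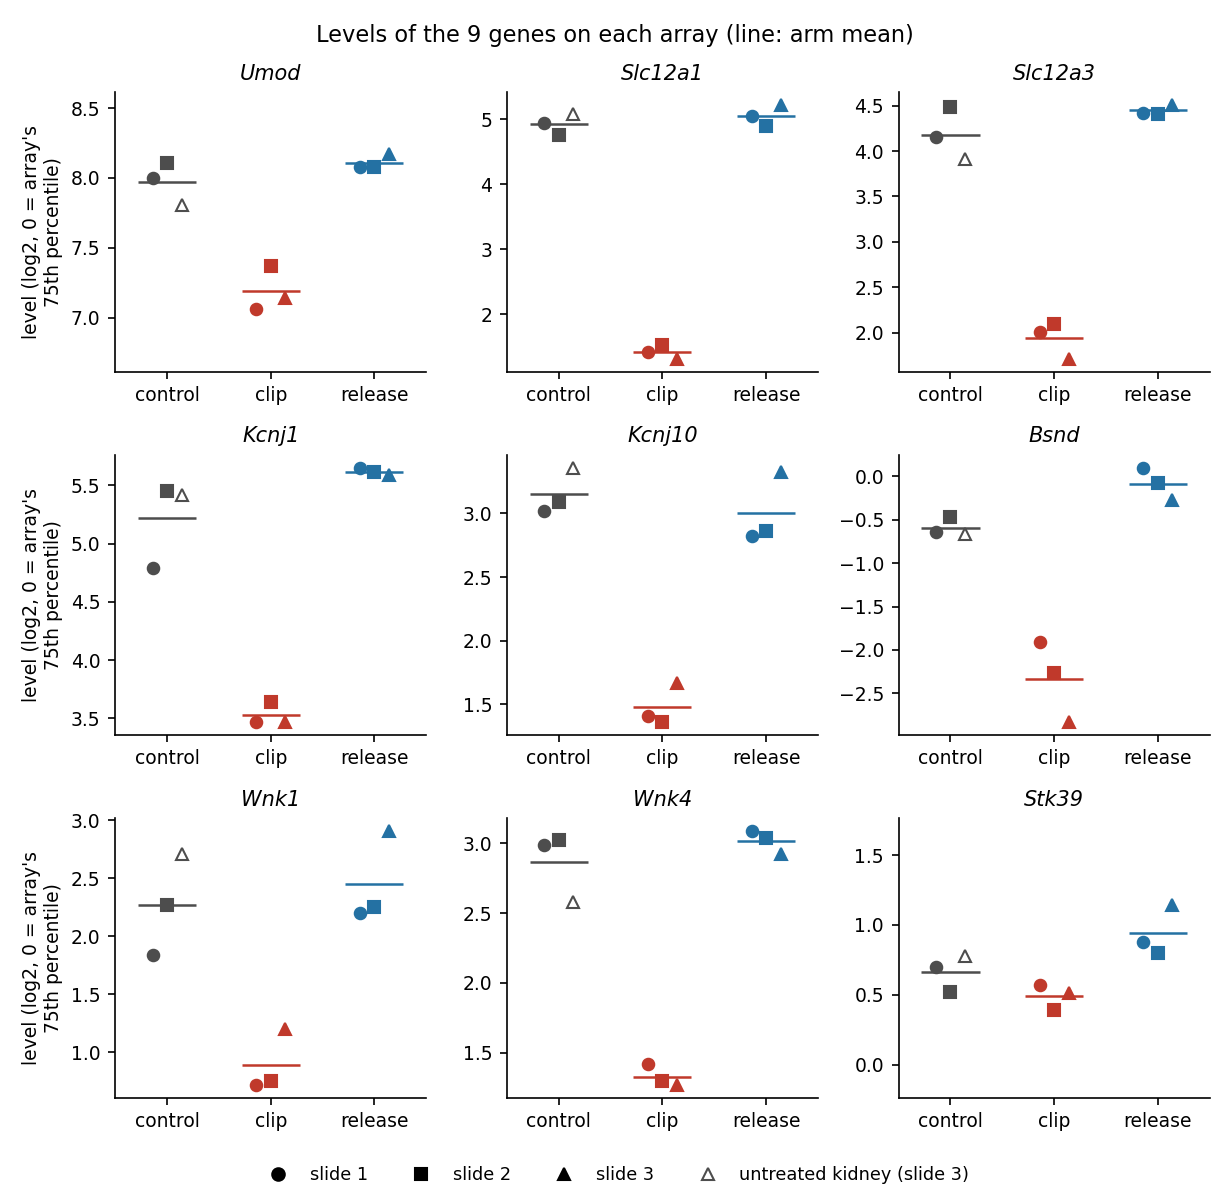
Level of each of the 9 genes on each array, as log2 of the signal over the array's 75th percentile, by arm. Each point is 1 kidney, lines are arm means (n = 3), marker shapes are slides, the open triangle is the untreated kidney, and the y axes differ between panels. Clip points lie below every control point for all genes but Stk39.

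Levels are given as log2 of the probe's signal relative to the array's 75th percentile, so that 0 is that percentile. They are compared between arrays for 1 probe, and never between genes, because probes differ in how brightly they bind. Errors of levels are SD (n = 3 per arm), and errors of differences are standard errors of the fit.

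Uromodulin RNA was moderately reduced. The level of Umod was 8.0 and 8.11 in the sham kidneys and 7.81 in the untreated kidney, 7.06, 7.37 and 7.14 in the clip kidneys, and 8.08, 8.08 and 8.17 in the release kidneys. The 3 clip kidneys lay below all others, and the release kidneys lay within or just above the control range. Relative to the control mean, the clip kidneys held 53%, 66.1% and 56.3%. The difference between the clip mean of 7.19 ± 0.16 and the control mean of 7.97 ± 0.15 was -0.78 ± 0.12 (limma, adjusted p = 0.000711). Saturation can hide a fall in a bright probe, so its signal was checked. The Umod spot read 51570 to 122500 units, between 16.9% and 38.6% of the brightest spot on the same array, and no spot was saturated on any array. This covers saturation of the scanner only. Whether the probe's signal stayed in proportion to its RNA at this brightness was not tested.

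The cotransporter of the thick limb showed the largest change of the 9. The level of Slc12a1 was 4.94 and 4.76 in the sham kidneys and 5.08 in the untreated kidney, 1.41, 1.53 and 1.31 in the clip kidneys, and 5.04, 4.89 and 5.22 in the release kidneys. The clip kidneys held 8.72%, 9.47% and 8.16% of the control mean, a narrow band far below every other array. The difference from control was -3.51 ± 0.12 (limma, adjusted p = 1.15e-06), which placed Slc12a1 at rank 51 from the lowest among the 17741 genes. Within the slides, the difference between the clip and the control array ran from -3.77 to -3.23.

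NCC, the cotransporter of the distal convoluted tubule and the target of thiazide diuretics, followed. The level of Slc12a3 was 4.15 and 4.48 in the sham kidneys and 3.91 in the untreated kidney, 2.01, 2.09 and 1.71 in the clip kidneys, and 4.42, 4.41 and 4.51 in the release kidneys. Clip and control did not overlap, and the lowest clip and the lowest control values were both on slide 3. The clip kidneys held 22.2%, 23.5% and 18% of the control mean, a difference of -2.24 ± 0.16 (limma, adjusted p = 1.48e-05). The fall of Slc12a3 was smaller than that of Slc12a1 by 1.27 ± 0.22 when both were read from the same arrays (limma, adjusted p = 0.00011).

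Both potassium channels fell, Kcnj1 3.23-fold and Kcnj10 3.19-fold. The level of Kcnj1 was 4.79 and 5.45 in the sham kidneys and 5.42 in the untreated kidney, 3.47, 3.64 and 3.47 in the clip kidneys, and 5.65, 5.61 and 5.59 in the release kidneys. The first sham kidney was the lowest control and held 74.2% of the control mean, still above every clip kidney. The difference was -1.69 ± 0.17 (limma, adjusted p = 8.46e-05). The level of Kcnj10 was 3.02 and 3.09 in the sham kidneys and 3.36 in the untreated kidney, 1.41, 1.36 and 1.67 in the clip kidneys, and 2.82, 2.86 and 3.33 in the release kidneys. In each arm the highest value was the array on slide 3, and the clip kidneys were well below the rest. The difference was -1.67 ± 0.17 (limma, adjusted p = 7.7e-05), and the 3 differences within slides ran from -1.73 to -1.61.

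Barttin, the subunit that carries chloride channels to the basolateral membrane, also fell. The level of Bsnd was -0.64 and -0.47 in the sham kidneys and -0.66 in the untreated kidney, -1.91, -2.27 and -2.83 in the clip kidneys, and 0.10, -0.08 and -0.27 in the release kidneys. The arms did not overlap, and the clip kidneys spread more widely (SD 0.46) than for any other member. The difference between clip and control was -1.75 ± 0.22 (3.35-fold lower, limma, adjusted p = 0.000252). With normexp background correction in place of the scanner's own, it was -0.74, with an adjusted p of 0.0525 (limma), so the call for Bsnd rested on the background correction.

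Of the kinases, Wnk4, which regulates NCC and is mutated in a familial form of hypertension with high potassium, was lower in clip than in control on each of the 3 slides, by -1.72 to -1.31. Its level was 2.99 and 3.02 in the sham kidneys and 2.58 in the untreated kidney, 1.42, 1.30 and 1.27 in the clip kidneys, and 3.09, 3.04 and 2.92 in the release kidneys. The untreated kidney was the lowest control and lay far above the highest clip kidney. The difference was -1.53 ± 0.13 (2.89-fold lower, limma, adjusted p = 3.57e-05).

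SPAK, the kinase between the WNKs and the cotransporters, was the exception. The level of Stk39 was 0.70 and 0.52 in the sham kidneys and 0.78 in the untreated kidney, 0.57, 0.39 and 0.51 in the clip kidneys, and 0.88, 0.80 and 1.14 in the release kidneys. Clip and control overlapped. The difference was -0.17 ± 0.12, with a 95% confidence interval from -0.45 to 0.10 (limma, adjusted p = 0.27), an interval that does not reach the difference seen in Wnk4.

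Wnk1 was read by 3 probes that did not move alike. The main, brightest probe, A_52_P171064, gave 1.84 and 2.27 in the sham kidneys and 2.71 in the untreated kidney, 0.72, 0.75 and 1.2 in the clip kidneys, and 2.20, 2.25 and 2.91 in the release kidneys. Its clip values lay below all others, with a difference from control of -1.39 ± 0.27 (2.62-fold lower, limma, adjusted p = 0.00296).
The probe A_52_P82209 gave 1.0 and 1.24 in the sham kidneys and 0.66 in the untreated kidney, 0.01, 0.15 and -0.28 in the clip kidneys, and 1.14, 1.25 and 0.83 in the release kidneys. It too was lower in every clip kidney, by -1.01 ± 0.19 (limma over probes, adjusted p = 0.00223). The probe A_51_P318564 gave -1.26 and -1.57 in the sham kidneys and -1.47 in the untreated kidney, -1.18, -1.43 and -1.12 in the clip kidneys, and -1.28, -1.49 and -1.43 in the release kidneys. Here the arms overlapped, and the difference was 0.19 ± 0.13 (limma over probes, adjusted p = 0.245). In a test of the difference between probes, added after these values were seen, clip against control changed A_52_P171064 by -1.58 ± 0.30 relative to A_51_P318564 (2.99-fold, limma over 23542 probes, adjusted p = 0.00195). The same test gave A_52_P82209 a change of -1.2 ± 0.24 relative to A_51_P318564 (2.3-fold, adjusted p = 0.00292). A_51_P318564 was picked as the reference because it changed least of the 3 probes. That choice favours a difference, and the p-values do not allow for it. It was also a dim probe, at 108 to 202.4 units, beside 637 to 3202 for A_52_P171064. The part of brightness in the difference was not tested. The kidney makes a short Wnk1 transcript without the kinase domain beside the full-length form, chiefly in the distal convoluted tubule. The probes were not placed on transcripts here, so which form each probe reads was not determined. With the mean of the 3 probes in place of the brightest, the change of Wnk1 was -0.73.

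**Figure D2:**
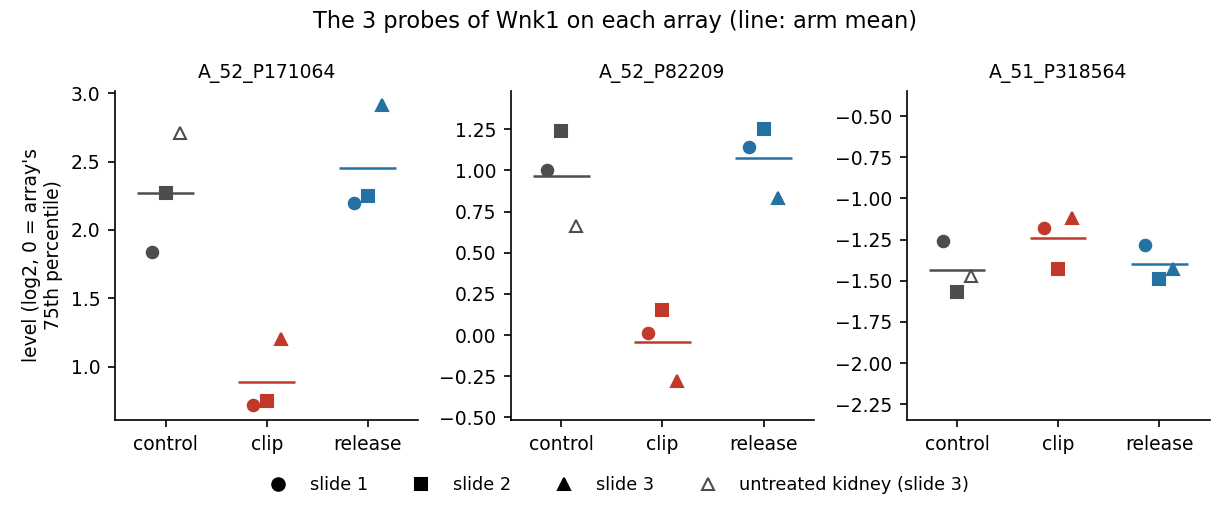
Level of the 3 Wnk1 probes on each array, as log2 of the signal over the array's 75th percentile, with arm means as lines (n = 3) and slides as marker shapes. The axes start at different values and levels are not comparable between probes. Clip values are below all control values for A_52_P171064 and A_52_P82209 and overlap them for A_51_P318564.

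Whether the members fell by different amounts was tested on the same arrays, by subtracting the level of a reference member from every gene before the fit. Each member but Wnk1 was read by a single probe, and whether these probes respond alike to a change in RNA was not tested. Against Umod, Slc12a1 changed by -2.73 ± 0.18 more (6.64-fold, limma, adjusted p = 6.19e-07) and Slc12a3 by -1.46 ± 0.16 more (adjusted p = 1.95e-05). The excess fall over Umod was also called for Kcnj1 (-0.91 ± 0.20), Kcnj10 (-0.89 ± 0.21), Bsnd (-0.96 ± 0.24) and Wnk4 (-0.75 ± 0.17). For Stk39 the change was in the other direction, 0.61 ± 0.19 (adjusted p = 0.016), since it did not fall with Umod. For Wnk1 the excess of -0.61 ± 0.29 missed the threshold (adjusted p = 0.0825, interval -1.24 to 0.03) and passed it with slide as a block (adjusted p = 0.00852). In this fit 5.59% of all genes were called lower than Umod and 63.4% higher, so 6 of 8 members were in the lower class. The Bsnd difference from Umod was 0.31 with normexp (adjusted p = 0.378), and that of Stk39 lost its call without the second sham array (adjusted p = 0.0707) or without the first clip array (adjusted p = 0.0629). Without the first sham array or the third clip array, Wnk1 also passed (adjusted p = 0.0281 and 0.0483).

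Against Slc12a1, all 8 other members fell less, from 1.27 for Slc12a3 to 3.34 for Stk39, and all 8 were called under normexp, the slide block and the loss of each array. This says little about the members, since 99.2% of all genes were called higher in the same fit.

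**Figure D3:**
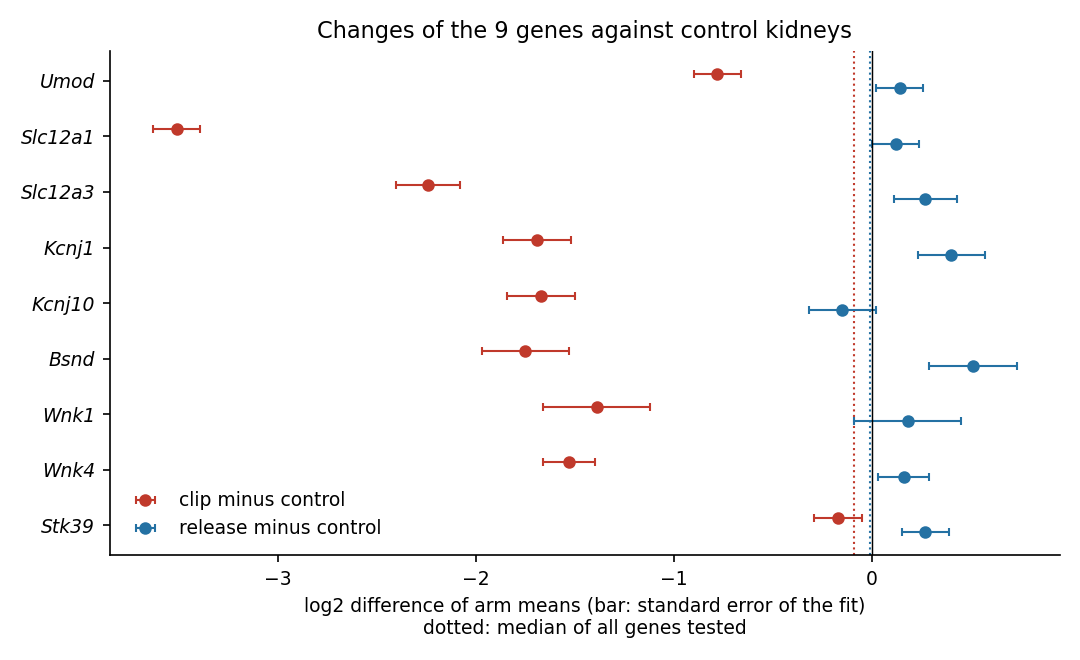
Difference of arm means against control for the 9 genes on the log2 scale, clip in red and release in blue, with the standard error of the fit as bars (n = 3 per arm) and the median of all genes as dotted lines. Clip differences run from -3.51 for Slc12a1 to -0.17 for Stk39, and release differences from -0.15 for Kcnj10 to 0.51 for Bsnd.

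After clip removal the levels of all 9 genes were near control. None was called by limma, and 3 had an unadjusted p under 0.05, as did 3811 of all 17741 genes. These 3 were Bsnd at 0.51 ± 0.22 (adjusted p = 0.223), Kcnj1 at 0.40 ± 0.17 (adjusted p = 0.225) and Stk39 at 0.27 ± 0.12 (adjusted p = 0.232). In these 3 every release kidney lay above every control kidney, as in 13.6% of all genes. The release kidneys held 162%, 142% and 125% of the control mean of Bsnd and 134%, 132% and 129% of that of Kcnj1. The Kcnj1 difference was 0.86 on slide 1 and 0.17 on each of slides 2 and 3, and it was 0.18 without the first sham array. The Stk39 difference was 0.17 without the third release array. For the cotransporters the 95% confidence intervals were -0.16 to 0.41 for Slc12a1 and -0.09 to 0.63 for Slc12a3, so a remaining deficit larger than these lower bounds lies outside them. The interval was -0.13 to 0.41 for Umod, -0.53 to 0.23 for Kcnj10, -0.44 to 0.80 for Wnk1 and -0.14 to 0.45 for Wnk4. The Wnk1 difference of 0.18 ± 0.27 changed sign with single arrays left out, at -0.04 without the first sham array and -0.05 without the third release array. Without single arrays other small differences moved as well: Umod ran from 0.06 to 0.21, Slc12a1 from 0.04 to 0.20, Slc12a3 from 0.13 to 0.42, Kcnj10 from -0.31 to -0.05 and Wnk4 from 0.01 to 0.23. Within the slides, release lay above control on all 3 for Slc12a1, Kcnj1, Bsnd, Wnk4 and Stk39, and below it on all 3 for Kcnj10. With slide as a block, limma called 1163 genes in place of 325, and still none of the 9, with Stk39 the nearest (adjusted p = 0.0849) and Bsnd next (0.105). None of the 19 alternatives called any member in release against control. The median release difference of the 9 was 0.18, beside -0.01 for all genes. Clip and release were compared with the same control kidneys, so those differences are not independent.

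Release kidneys were then compared with clip kidneys. Slc12a1 was 12.4-fold higher (3.64 ± 0.12, limma, adjusted p = 1.85e-06), Slc12a3 5.71-fold and Bsnd 4.77-fold. Kcnj1 was 4.26-fold higher, Wnk4 3.22-fold, Wnk1 2.96-fold, Kcnj10 2.87-fold and Umod 1.9-fold. No release kidney overlapped a clip kidney in any of the 9, with release higher, as in 31.4% of all genes. Stk39, which had not passed against control in either arm, was 1.36-fold higher in release than in clip (0.45 ± 0.12, adjusted p = 0.0175). With normexp the Bsnd difference was 1.18 in place of 2.25, and with the mean of its probes that of Wnk1 was 0.84 in place of 1.57, both still called. The Wnk1 probe A_51_P318564 differed by -0.15 ± 0.13 and did not pass (limma over probes, adjusted p = 0.367). The Stk39 call was lost without the second clip array (adjusted p = 0.0636) or without the third release array (adjusted p = 0.0515). The median of the 9 was 1.69, beside 0.08 for all genes.

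The untreated kidney did not stand apart from the sham kidneys in these genes by the test available, 1 array against 2 with the spread taken from all groups. None of the 9 was called (limma, 0.524% of all genes were), and 1 had an unadjusted p under 0.05. The largest difference was that of Wnk1, 0.66 ± 0.35, and Wnk4 was -0.42 ± 0.13. The untreated array was the only control on slide 3, so these differences cannot be told apart from slide and scan date. On slide 3 the main Wnk1 probe was highest, and Wnk4 lowest, in all 3 arms.

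Other genes of the same segments were read from lists of known function. Of the thick limb partners tested, 9 of 12 were lower and 2 higher in clip against control, with a median of -0.87. Of all genes tested, 27.5% were called lower and 48.9% in either direction. The calcium-sensing receptor Casr, which slows salt uptake in the thick limb, was at -1.61 ± 0.16 (limma, adjusted p = 7.43e-05), but at -0.21 with normexp (adjusted p = 0.588). Ptger3, a prostaglandin E receptor of the thick limb, fell by 1.54 ± 0.16 on the log2 scale (adjusted p = 8.58e-05). The 2 that rose were Cldn14, a claudin that blocks paracellular calcium passage (2.04 ± 0.27, adjusted p = 0.000382, 1.02 with normexp), and Maged2, which supports both cotransporters in early life (1.25 ± 0.14, adjusted p = 0.000162). Cldn14 was well above background on 2 of the 3 control arrays. Cldn19, partner of Cldn16 in the thick limb, was at 0.30 ± 0.16 and did not pass. In release against control limma called none of the 12, and 4 had an unadjusted p under 0.05, as did 3811 of all 17741 genes.

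All 10 genes on the list of distal convoluted tubule genes were lower in clip (27.5% of all genes were), with a median of -2.58. Whether these genes are confined to that segment was not tested. Egf, a growth factor precursor, fell 125-fold (-6.97 ± 0.10, limma, adjusted p = 1.9e-08), the largest fall of all genes tested. The calcium buffer Pvalb was not well above background on any clip array and was at least 17.8-fold lower (adjusted p = 5.72e-07). The lower bound for such a probe is its control mean against the lowest signal that counted as above background on each clip array, or its own signal where that was higher. With normexp the change of Pvalb was -1.62 (adjusted p = 0.0107). Trpm6, the magnesium channel of the distal convoluted tubule, was the only gene of the 5 lists called higher in release against control, at 0.78 ± 0.15 (adjusted p = 0.0451), after a clip difference of -0.52 ± 0.15. That release call was lost in 14 of 19 alternatives, with adjusted p from 0.0352 to 0.931.

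In the WNK pathway and among aldosterone regulators, 7 of 10 were lower and none higher in clip, with a median of -0.50. Of all genes tested, 27.5% were called lower. With normexp 4 of the 10 were lower. Sgk1, the aldosterone-induced kinase, fell by 1.74 ± 0.20 (limma, adjusted p = 0.000179) and Hsd11b2, which shields the mineralocorticoid receptor from glucocorticoids, by 1.06 ± 0.21 (adjusted p = 0.0034, -0.62 with normexp). Not called were Wnk2 (-0.37 ± 0.17), the mineralocorticoid receptor Nr3c2 (-0.30 ± 0.26) and Oxsr1 (-0.18 ± 0.16). Oxsr1 encodes OSR1, the close relative of SPAK, so both kinases that act directly on the cotransporters had small differences that did not pass, with OSR1's interval from -0.54 to 0.18.

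The other members of the Slc12 family did not move as one. Of 6, 2 were lower and 1 higher in clip, with a median of -0.01, beside -0.09 for all genes. These counts were near the shares of all genes, 27.5% called lower and 48.9% in either direction, and say little about the family. The potassium-chloride cotransporter Slc12a7 fell 1.73-fold (-0.79 ± 0.08, limma, adjusted p = 7.97e-05). Slc12a5, a relative best known from neurons, was at -0.52 ± 0.17 (adjusted p = 0.0314), a call lost in 9 of 19 alternatives with adjusted p from 0.0158 to 0.11. Slc12a4, a potassium-chloride cotransporter present in most cells, rose 2.11-fold (1.07 ± 0.13, adjusted p = 0.000216). Slc12a2, which encodes NKCC1, the widely expressed relative of NKCC2, was at 0.08 ± 0.23 and did not pass. After release limma called none of the 6, and 2 had an unadjusted p under 0.05, as did 3811 of all 17741 genes.

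Of 7 transcription factors of these segments, 6 were lower (27.5% of all genes were) and none higher in clip, with a median of -0.87. Esrrb, an orphan nuclear receptor, fell 4.8-fold (-2.26 ± 0.14, limma, adjusted p = 8.13e-06, -1.08 with normexp). Irx1, a homeobox factor of the developing intermediate nephron, fell 3-fold (-1.58 ± 0.08, adjusted p = 3.15e-06). Ppargc1a, a coactivator of mitochondrial genes, was at -0.87 ± 0.34 and missed the threshold (adjusted p = 0.0641). After release limma called none of the 7, and 2 had an unadjusted p under 0.05, as did 3811 of all 17741 genes. Wnk3 and Klhl3 were not matched on the array, and Slc9a3, Pax2 and Sim1 were not tested because they were above background on at most 1 of 9 arrays.

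**Figure D4:**
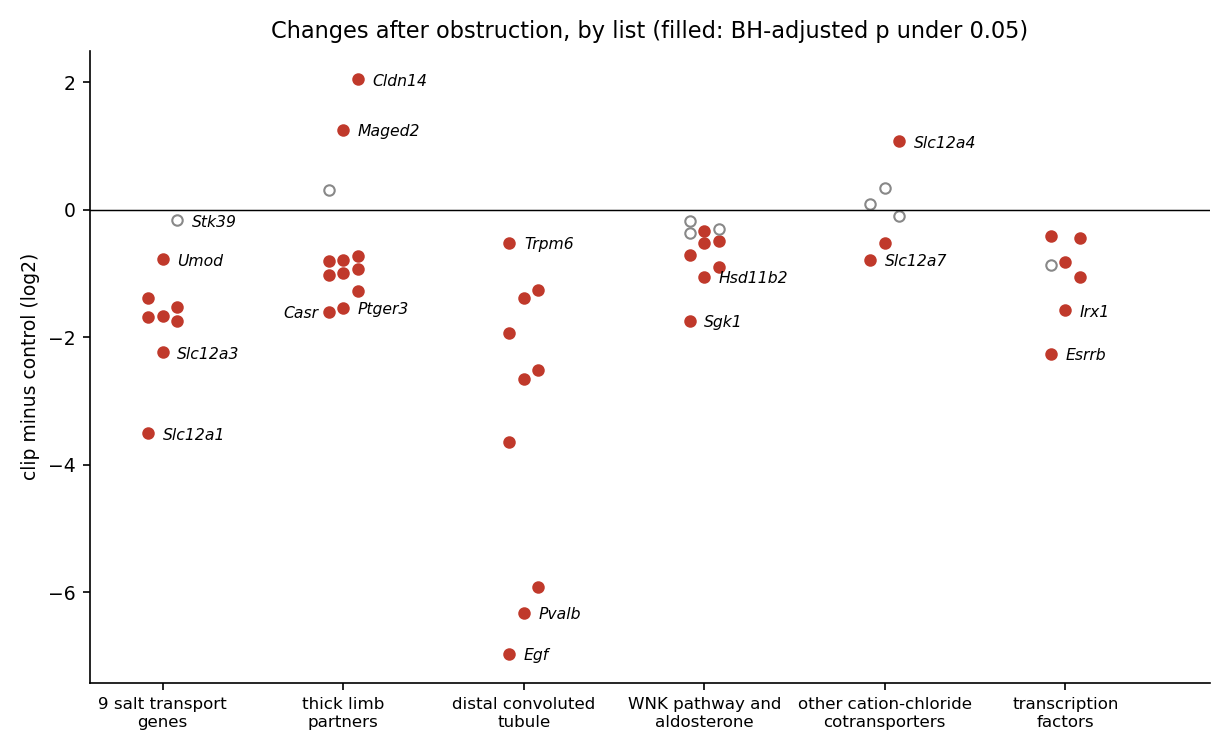
Difference of clip from control on the log2 scale for the 9 genes and for 5 lists of related genes, 1 point per gene, filled where the adjusted p was under 0.05. All 10 distal convoluted tubule genes lie below 0, and Cldn14, Maged2 and Slc12a4 are the filled points above it. Pvalb and the point just above it, Tmem207, are drawn at their fitted values and were not well above background on any clip array.

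Markers of other cells moved in the same kidneys. Of the proximal tubule markers 9 of 10 were lower in clip, and their summed level, on a linear scale in units of the 75th percentile, was 518 to 623 in control, 126 to 199 in clip and 457 to 557 in release. All 6 intercalated cell markers and 3 of 6 principal cell markers were lower, beside 27.5% of all genes tested. All 8 markers of injured tubule were higher (165 to 198 in control, 710 to 797 in clip), as were all 7 of fibroblasts (46.2 to 58.7, then 206 to 256), 5 of 7 of macrophages and leukocytes (6.05 to 7.46, then 19.6 to 21.5) and all 5 of proliferation. The brightest probes weigh most in such sums, so the sums need not show how the dimmer genes of a list changed. Of all genes tested, 48.9% were called in clip against control, and 43.7% of those calls were higher. In release kidneys 4 of 7 fibroblast, 3 of 8 injured tubule and 1 of 7 leukocyte markers were called higher than control, and 0 of each with normexp. Over all alternatives these counts ran from 0 to 5, 0 to 6 and 0 to 3. Of all genes tested, 1.83% were called in release against control, and 79.7% of those calls were higher. The part of these marker shifts in the falls of the 9 genes was not tested. Kcnj10 is also a gene of glia, whose marker Gfap was not above background on any array. Of the other 4 genes on the glia list, 1 was lower in clip, Aldh1l1 (-1.28 ± 0.12, limma, adjusted p = 7.08e-05). Aqp4 is also on the principal cell list, and which cells these transcripts come from was not determined.

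For each member the 3 other named genes with the most similar levels over the 9 arrays are given by Pearson's r. For all members but Stk39, much of r can come from the gap between the clip kidneys and the rest. The clip and control kidneys of Stk39 overlapped, so its r values do not rest on such a gap. Deviations shared within slides also enter every r, and their part was not tested. Slc12a1 was followed most closely by Mfsd4a (r = 0.998), Ppp1r1a (0.9964) and Egf (0.9963). Slc12a3 was followed by Cwh43 (0.9961), Casr (0.9954) and the sodium-calcium exchanger Slc8a1 (0.993). Cwh43 was also the gene nearest to Umod (0.9825), although it changed by -2.20 after the clip, against -0.78 for Umod, and Tmem50b (0.9817) and Sco1 (0.9809) came next. Kcnj1 was followed by Tmem213 (0.996), Tmem52b (0.9932) and the insulin receptor substrate Irs1 (0.989). Kcnj10 was followed by Gpm6a (0.9954), Ak3 (0.9947) and Fam13a (0.9946). Bsnd was followed by Pla2g7 (0.9898), Cyp2u1 (0.9888) and Calr3 (0.9886). Wnk1, by its main probe, was followed by Arsk (0.9898), Mettl25 (0.9866) and Pomgnt1 (0.9829), and Wnk4 by Cyp7b1 (0.9966), Sema4g (0.9951) and Fcamr (0.9949). Stk39 had the lowest best match, Tecpr1 at 0.968, whose change after the clip was -0.10, followed by Tmem80 (0.9491) and Slc6a12 (0.9483).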

How the data were processed

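Per the file headers, the arrays (Agilent design 014868) were scanned and read with Feature Extraction 10.7.3.1. The deposited files give each spot's intensity, from which the scanner software had subtracted background and removed spatial trends, and the deposited flags for spots above background, saturated or outlying. Each intensity was scaled to its array's 75th percentile before the log2. Probes well above background on at least 3 of 9 arrays were kept (23564), and RefSeq accessions gave symbols for 26690 of 41174 probes. The brightest probe per gene was fitted with limma 3.58.1 in R 4.3.3, 3 arms over 9 arrays, with Benjamini-Hochberg adjustment over 17741 genes and a threshold of 0.05. The deposited table of log2 values was not used: none of its 8080 rows with values lay within 0.02 of its own probe's scanner values (median r 0.0188).

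The members and gene lists were chosen with earlier results of these data known. Named are the 9 members, for each of the 5 pathway lists the 2 largest rises and falls called in clip against control and every gene called in release against control, and 3 genes most like each member; other listed genes named were chosen after their values were seen. Some listed genes are not reported here, and the lists' counts leave them out. Alternatives were normexp (offset 50, on median spot and background intensities, as the planned mean signal was not a column here), quantile normalization, another percentile set, other filters, the mean of probes, slide and replicate blocks, sham alone as control, only the arms compared, and leaving out each array. Deviations from arm means correlated at 0.161 to 0.281 between arrays of a slide, at -0.239 to 0.00288 between arrays of other slides and arms, and at -0.209 to 0.269 between arrays of the same replicate number. Replicate and slide numbers were the same on every array except the untreated one, which is numbered 1 but lay on slide 3. Pairs of the same number that correlated below 0.161 were therefore pairs with the untreated array. The numbers were not treated as pairs. The planned fit has no slide term, although deviations were shared within slides, and the fit with slide as a block is an alternative. The fits were tested on simulated data with independent noise for each gene and array. These data had no slide effect, so the simulation does not cover deviations shared within a slide.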

Additional observations from a re-analysis of the deposited data

How the results depend on the processing

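Over 19 alternatives, 7 or 8 of the 9 genes were called lower in clip against control, 0 in release against control and 8 or 9 higher in release against clip. Single members and named genes kept direction and call in 405 of 416 results for clip against control (the others were Bsnd and Casr with normexp and Slc12a5 in 9 alternatives), 173 of 190 for release against control and 169 of 171 for release against clip. The reversals were Bsnd relative to Umod with normexp (0.31) and Wnk1 in release against control with the replicate block (-0.02) or without sham array 1 (-0.04) or release array 3 (-0.05), with 0.40 the highest value when single arrays were left out.

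Counts over all genes moved more, and the cause was not tested. Clip against control gave 8676 calls, and 5622 with normexp. Release against clip gave 7270 calls, 4136 with normexp and 13597 without a filter. Release against control gave 325 calls, 1 with normexp, 117 with quantile normalization, 518 with the percentile over probes above background on all arrays, 12 without a filter, 1163 with slide as a block, 203 with the replicate block and 0 with only the arms compared (limma; 3811 genes had an unadjusted p under 0.05 in the 3-arm fit). It gave 2 to 343 without single arrays, the fewest without release array 2. The replicate block changed no call of a member. That percentile set moved the share of higher calls from 43.7% to 57.8% in clip against control and from 57.5% to 46.9% in release against clip. The all-gene median of clip against control was -0.09, and 0.10 with normexp, beside -1.67 and -1.54 for the 9 genes. The filter for all 9 arrays left no value for Cldn14 and Pvalb. With 3 arrays an arm, their number limits the precision.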

Other observations

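Some of the 9 genes varied with the slide. In all 3 arms the array of slide 3 was the highest of its arm for Kcnj10 and for the Wnk1 probe A_52_P171064, and the lowest for Bsnd, Wnk4 and the Wnk1 probe A_52_P82209. The array of slide 2 was the lowest in all 3 arms for Stk39 and the Wnk1 probe A_51_P318564, and the highest for A_52_P82209, and that of slide 1 was the lowest for A_52_P171064. Deviations from the arm means correlated at 0.95 between Kcnj10 and Wnk1 over the 9 arrays, and at -0.783 between Wnk1 and Wnk4. These values describe 9 arrays on 3 slides, which the deviations share. With slide as a block, the standard error of the clip difference was 0.07 in place of 0.17 for Kcnj10 and 0.11 in place of 0.27 for Wnk1, and that of Stk39 gave an adjusted p of 0.111 (limma).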
